A study of Mus musculus with 10 samples.

Results

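The genes described here are the 9 of the VEGF system that were listed for these macrophages: the receptors Kdr, Flt1 and Flt4, the neuropilins Nrp1 and Nrp2, and the ligands Vegfa, Vegfb, Vegfc and Pgf. They were chosen by their names, in view of earlier results of these data, and are 9 of the 19935 genes that the array reads through a feature with a single gene symbol. Each was read from exactly 1 feature, and all 9 passed the filter on low values. Passing it does not show that a gene is expressed. A stricter filter, with a fourth-highest value of at least 6, kept 6 of the 9, and Kdr and Flt1 were again the 2 called. Both passed it through their WT arrays, so it is no separate support for these calls. The stricter filter left out Flt4, Vegfc and Pgf, whose readings may be near background. The same may hold for Kdr on Rac2-/- arrays 2 to 5 (5.84 to 5.98) and for Flt1 on the Rac2-/- arrays (5.75 to 6.34). RNA was hybridized to 10 Affymetrix whole-transcript mouse arrays, from bone marrow-derived macrophages (BMDMs), which are cells grown from marrow in MCSF, the growth factor that macrophages need to survive and differentiate. There were 5 arrays of Rac2-/- BMDMs, from mice that lack the hematopoietic small GTPase Rac2, and 5 of WT BMDMs. All mice were labelled as male C57BL, and their age was not given in the sources used here. In both genotypes cells were cultured in 20% serum with MCSF at 50 ng/ml for 7 days, kept at 16% oxygen, a setting the labels call normoxia, and taken at day 8 with no other treatment. The labels give over 80% Mac1-positive cells. Nothing in them ties an array to a mouse of its own, so the spread behind the p-values is that of these 10 arrays and may be in part technical. The arrays ask whether macrophages without Rac2 differ from WT in the genes that send and receive VEGF signals.

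VEGF signals pass from secreted ligands to receptor tyrosine kinases on the cell surface. Vegfa binds both Flt1 (VEGFR1) and Kdr (VEGFR2), Vegfb and placental growth factor (Pgf) bind Flt1, and Vegfc binds Flt4 (VEGFR3). In endothelial cells Kdr carries most of the mitogenic signal, Flt4 serves lymphatic vessels, and Flt1 binds Vegfa tightly but signals weakly. The neuropilins have no kinase of their own and act as co-receptors for VEGF and for semaphorins. Monocytes and macrophages are known to use Flt1 to migrate towards VEGF and are themselves a source of Vegfa in hypoxic tissue.

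RefSeq promoter windows of GRCm38.p6, from 250 bases before to 50 bases after an annotated start, were at hand for all 9 genes, 11 windows in all. Windows of the genes for the 2 receptors that passed the test below and for the main ligand are shown so that the receptors and Vegfa, which did not pass it, can be set side by side. Capitals mark matches on either strand. The letters searched were GGGCGG for the GC box that Sp1 binds. For the other factor families they were CCGGAA as the core of ETS sites, then GATAA as the core of sites for the family of that name, next ACGTG as the HIF core, and last TGANTCA as the AP-1 site. Searched motifs did not overlap each other in these 3 windows.
Kdr, chr5:75978406-75978705, minus strand: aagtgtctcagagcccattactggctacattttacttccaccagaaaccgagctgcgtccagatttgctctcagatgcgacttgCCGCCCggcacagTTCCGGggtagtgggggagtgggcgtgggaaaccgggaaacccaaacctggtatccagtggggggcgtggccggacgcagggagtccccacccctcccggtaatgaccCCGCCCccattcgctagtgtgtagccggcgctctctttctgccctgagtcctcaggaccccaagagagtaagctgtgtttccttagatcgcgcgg
Flt1, chr5:147725962-147726261, minus strand: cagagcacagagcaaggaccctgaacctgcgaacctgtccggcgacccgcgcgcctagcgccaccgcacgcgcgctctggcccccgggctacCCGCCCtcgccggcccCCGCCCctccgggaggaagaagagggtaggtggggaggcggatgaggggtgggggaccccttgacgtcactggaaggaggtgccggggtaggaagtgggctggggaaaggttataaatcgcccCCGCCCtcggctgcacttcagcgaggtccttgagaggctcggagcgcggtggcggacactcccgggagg
Vegfa, chr17:46032328-46032627, minus strand: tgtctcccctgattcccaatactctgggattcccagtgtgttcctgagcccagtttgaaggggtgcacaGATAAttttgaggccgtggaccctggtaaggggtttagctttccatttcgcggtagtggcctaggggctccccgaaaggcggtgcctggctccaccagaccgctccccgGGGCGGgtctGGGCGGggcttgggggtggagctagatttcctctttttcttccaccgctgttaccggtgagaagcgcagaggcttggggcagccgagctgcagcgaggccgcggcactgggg
The GC box was present 2 times in the Kdr window, 3 times in the Flt1 window and 2 times in this Vegfa window. It was in 10 of the 11 windows of the 9 genes (90.9%) and in 35.7% of all 32851 promoter windows. The windows of these 3 genes had a GC content of 60.7%, 70.7% and 62.0%, against a median of 52.7% over all windows. The ETS core was found in the Kdr window alone of the 11 (9.09%, against 14.9% of all windows), and the GATA core in the Vegfa window above alone (9.09%, against 25.4%). The HIF core was in 1 of 11 windows, at the second annotated start of Vegfa (9.09%, against 19.6%), and the AP-1 site was in 0 of 11, against 7.81%. These are matches of letters and say nothing of what binds there.

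Rac2 itself was 7.10 ± 0.29 in Rac2-/- and 12.10 ± 0.27 in WT on the log2 scale (SD, n = 5 each), 32.1-fold higher in WT (limma, adjusted p = 7.73e-07), so the arrays carry the genotypes on their labels. Arrays numbered 1 and 2 stood apart from arrays numbered 3 to 5 in both genotypes: correlations were 0.974 to 0.996 within a set and 0.934 to 0.955 between sets. The labels name no batch, and each set holds both genotypes, so that each difference below is also given within the sets. Of all features tested, 514 passed an adjusted p of 0.05 in limma (1.90%), 299 of them lower in Rac2-/- (1.11%). With the replicate number as a block 1716 passed (6.35%). The values showed no pairing by number beyond the array set. The block and the same-numbered pairs below are therefore no separate support. The median difference over all features was -0.0003. Differences are log2 values of Rac2-/- minus WT throughout, and levels are compared only between arrays for the same gene.

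Among the 9 genes, 2 passed the test, the receptors Kdr and Flt1, and both were lower in Rac2-/- (background 1.11% in that direction and 1.90% in either). The same 2 genes passed with the replicate block, where the background was 6.35%. They were also the 2 genes whose groups did not overlap, with every Rac2-/- array below every WT array, which held for 2.34% of all features, and 4.52% did not overlap in either direction. The other 7 did not pass: 3 of them had lower means in Rac2-/- (Flt4, Nrp1, Vegfa) and 4 had higher means (Nrp2, Vegfb, Vegfc, Pgf). No ligand passed.

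**Figure D1:**
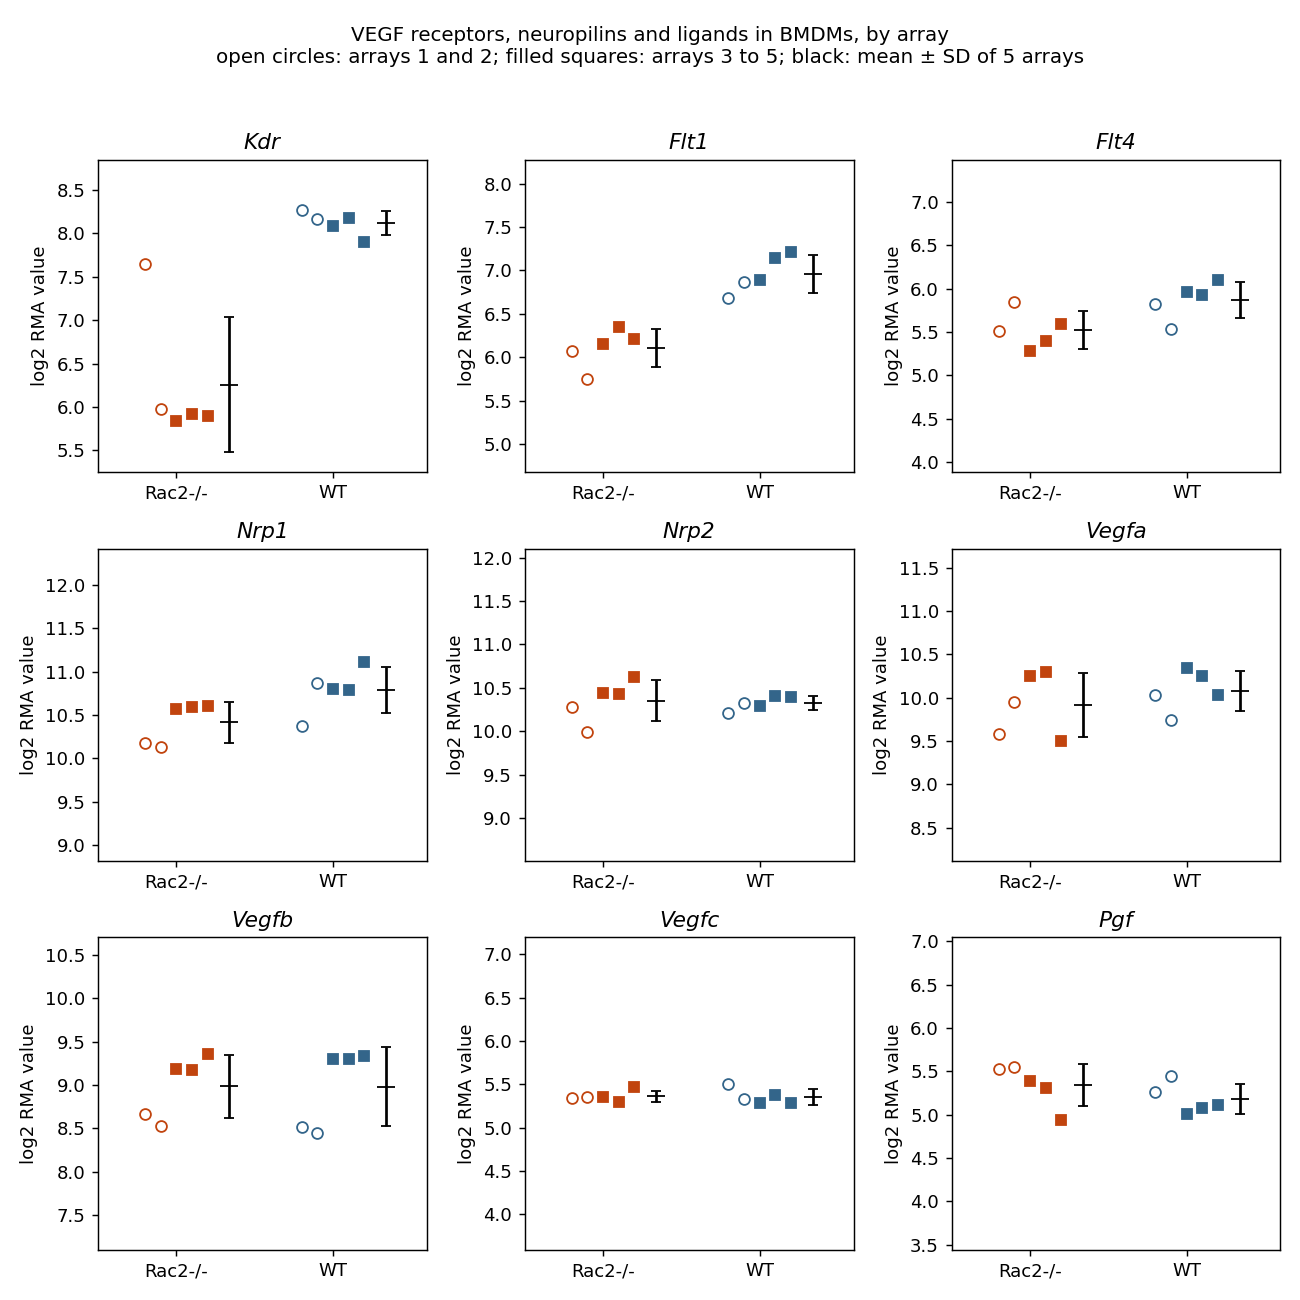
Log2 RMA values (y axis) of the 9 genes on each of the 5 Rac2-/- and 5 WT arrays (x axis, arrays 1 to 5 from left to right in each group), with open circles for arrays 1 and 2, filled squares for arrays 3 to 5, and black bars for mean ± SD. Every panel spans the same number of log2 units. Kdr and Flt1 lay lower on all Rac2-/- arrays than on any WT array, with Kdr on Rac2-/- array 1 at 7.65, while Vegfb split by array set (8.45 to 8.67 on arrays 1 and 2, 9.18 to 9.35 on arrays 3 to 5) and not by genotype.

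Kdr, the kinase receptor that carries most VEGF signalling in endothelium, differed the most of the 9. Its log2 values were 7.65, 5.98, 5.84, 5.92 and 5.90 on Rac2-/- arrays 1 to 5, and 8.27, 8.16, 8.09, 8.18 and 7.90 on WT arrays 1 to 5. All 5 Rac2-/- arrays were below the lowest WT array, but array 1 lay close to it while the other 4 lay together far below. The means were 6.25 ± 0.78 in Rac2-/- and 8.12 ± 0.14 in WT (SD, n = 5 each), a difference of -1.87 (SE 0.32, 95% interval -2.57 to -1.16), which is 3.65-fold higher in WT. The adjusted p was 0.0167 in limma and 0.0112 with the replicate block. An exact permutation test over the 10 arrays gave p = 0.00794, two-sided, the smallest that 5 arrays against 5 allow. By size of difference Kdr was 51st of all features tested.

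How far the Kdr call stands depended on single arrays. It passed on 6 of the 10 occasions when 1 array was left out. Without WT array 3, WT array 4, Rac2-/- array 3 or Rac2-/- array 4 the adjusted p was 0.051, 0.0514, 0.0509 and 0.0537, with differences of -1.87, -1.85, -1.76 and -1.78. Without Rac2-/- array 1 the difference was -2.21 and the adjusted p 1.13e-05. Between arrays of the same number Kdr was lower in Rac2-/- in 5 of 5 pairs, by -0.62 for number 1 and by -2.01 to -2.26 for numbers 2 to 5. Within arrays 3 to 5 the difference was -2.18 (limma, adjusted p = 0.000518), and within arrays 1 and 2 it was -1.40 (adjusted p = 0.558), where each genotype has 2 arrays.

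Flt1, the receptor shared by Vegfa, Vegfb and Pgf and the one macrophages are best known to use, was the steadier of the 2. Rac2-/- arrays 1 to 5 read 6.08, 5.75, 6.15, 6.34 and 6.21, against 6.68, 6.86, 6.89, 7.15 and 7.21 on WT arrays 1 to 5. No array of one genotype reached the other, and no single array stood apart in either. Means were 6.11 ± 0.22 in Rac2-/- and 6.96 ± 0.22 in WT (SD, n = 5 each). The difference was -0.85 (SE 0.14, 95% interval -1.16 to -0.55), or 1.81-fold higher in WT, with an adjusted p of 0.0122 in limma and 0.00569 with the replicate block. The exact permutation p was 0.00794. Flt1 passed on 10 of 10 occasions with 1 array left out (adjusted p 0.0136 to 0.041), and was lower in Rac2-/- in 5 of 5 same-numbered pairs, by -0.60 to -1.12. Arrays 1 and 2 alone gave -0.86 (adjusted p = 0.311), and arrays 3 to 5 alone gave -0.85 (adjusted p = 0.0106). Flt1 was 448th of all features by size of difference. Since these are bulk cultures, fewer cells with the transcript and less transcript per cell cannot be told apart, for Flt1 or for any gene here.

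Flt4, the VEGFC receptor of lymphatic endothelium, gave 5.51, 5.85, 5.28, 5.39 and 5.59 on Rac2-/- arrays 1 to 5, and 5.82, 5.54, 5.96, 5.93 and 6.10 on WT arrays 1 to 5. The groups overlapped through array 2 of each genotype, which was the highest of the Rac2-/- arrays and the lowest of the WT arrays. The means were 5.53 ± 0.22 in Rac2-/- and 5.87 ± 0.21 in WT (SD, n = 5 each), a difference of -0.34 (SE 0.13, 95% interval -0.64 to -0.051) that did not pass over all features (limma, adjusted p = 0.342, and 0.23 with the block). An exact permutation test of Flt4 alone, 1 of 9 such tests, gave p = 0.0476. Within arrays 3 to 5 the difference was -0.57 (adjusted p = 0.0266), while within arrays 1 and 2 it was 0.0004, from -0.31 for number 1 and 0.31 for number 2. The test of the difference between the sets did not pass for Flt4 (-0.57, SE 0.20, unadjusted p = 0.0187, adjusted p = 0.805).

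**Figure D2:**
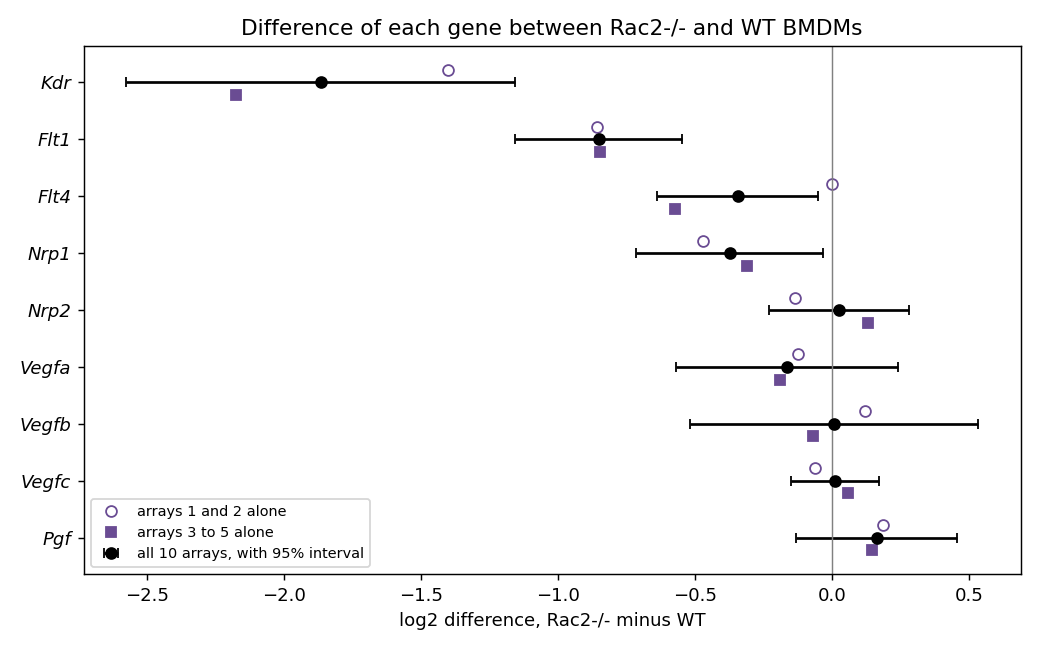
Log2 difference, Rac2-/- minus WT (x axis), of each of the 9 genes (rows), with black points and 95% intervals from limma over all 10 arrays, open circles for arrays 1 and 2 alone and squares for arrays 3 to 5 alone. Flt1 had the same difference in both sets (-0.86 and -0.85), Kdr was lower in both (-1.40 and -2.18), and Flt4 was at 0.0004 in arrays 1 and 2 and -0.57 in arrays 3 to 5.

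Of the neuropilins, Nrp1, the co-receptor that presents Vegfa to Kdr in endothelium, was 10.18, 10.13, 10.57, 10.59 and 10.60 on Rac2-/- arrays 1 to 5, and 10.37, 10.87, 10.80, 10.79 and 11.11 on WT arrays 1 to 5. WT array 1 was the only WT array that fell among the Rac2-/- arrays. The means were 10.41 ± 0.24 in Rac2-/- and 10.79 ± 0.27 in WT (SD, n = 5 each), and the difference of -0.37 (SE 0.15, 95% interval -0.72 to -0.033) did not pass (limma, adjusted p = 0.403, and 0.0817 with the block). Nrp1 was lower in Rac2-/- in 5 of 5 same-numbered pairs, and the exact permutation p was 0.0714. The difference was -0.47 within arrays 1 and 2 and -0.31 within arrays 3 to 5.

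Nrp2, a co-receptor for Vegfc and for class 3 semaphorins, did not separate the genotypes. Rac2-/- arrays ran from 9.99 to 10.63 with a median of 10.43 (n = 5), and WT arrays from 10.21 to 10.41 with a median of 10.33 (n = 5). The Rac2-/- arrays enclosed all WT arrays, and the difference was 0.025 (95% interval -0.23 to 0.28, limma adjusted p = 0.999). Nrp2 had no stable direction, at -0.14 within arrays 1 and 2 and 0.13 within arrays 3 to 5. The difference between the 2 neuropilins was not tested.

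Among the ligands, Vegfa, the main angiogenic factor and a target of HIF in low oxygen, was 9.58, 9.95, 10.25, 10.30 and 9.50 on Rac2-/- arrays 1 to 5. On WT arrays 1 to 5 it was 10.03, 9.75, 10.34, 10.25 and 10.03. The lowest values were those of Rac2-/- arrays 5 and 1, and the other arrays of both genotypes were interleaved. The means were 9.92 ± 0.37 in Rac2-/- and 10.08 ± 0.23 in WT (SD, n = 5 each), with a difference of -0.17 (SE 0.18, 95% interval -0.57 to 0.24, limma adjusted p = 0.969, and 0.502 with the block). That interval leaves room for a change of either sign, with 0.57 log2 units lower in Rac2-/- as its far end.

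Vegfb, a ligand of Flt1 alone among the receptors, followed the array sets. It was 8.67 and 8.53 on Rac2-/- arrays 1 and 2, 9.19, 9.18 and 9.35 on Rac2-/- arrays 3 to 5, 8.51 and 8.45 on WT arrays 1 and 2, and 9.30, 9.30 and 9.33 on WT arrays 3 to 5. Arrays 3 to 5 exceeded arrays 1 and 2 by 0.64 in Rac2-/- and by 0.83 in WT. Between the genotypes the difference was 0.0054 (SE 0.24, 95% interval -0.52 to 0.53, limma adjusted p = 0.999), and within the sets it was 0.12 for arrays 1 and 2 and -0.070 for arrays 3 to 5.

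Vegfc, the ligand of Flt4, lay in a narrow band, between 5.30 and 5.47 on Rac2-/- arrays (median 5.36) and between 5.28 and 5.50 on WT arrays (median 5.33, n = 5 each). The difference was 0.0098 (95% interval -0.15 to 0.17, limma adjusted p = 0.999). Pgf was 5.53, 5.55, 5.39, 5.31 and 4.94 on Rac2-/- arrays 1 to 5, and 5.26, 5.45, 5.01, 5.08 and 5.11 on WT arrays 1 to 5. Array 5 held the lowest Rac2-/- value, below all WT arrays, and the groups overlapped over most of their range. The difference in Pgf was 0.16 (95% interval -0.13 to 0.46, limma adjusted p = 0.889). Vegfd, a further ligand of Flt4 that was not among the 9, averaged 5.20 in Rac2-/- and 5.27 in WT, with a difference of -0.076 (limma, adjusted p = 0.997).

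Whether a genotype difference was unequal in the array sets was tested with an interaction term. It passed for 0 features in limma after adjustment, with 1560 at an unadjusted p under 0.05, and for the 9 genes the adjusted p was 0.805 to 0.997. With a term for the array set, 2 of the 9 genes passed as before (Kdr and Flt1), against 2524 features in all. ComBat on the sets called 4 (Kdr, Flt1, Flt4 at 0.0399 and Nrp1 at 0.0157). Array weights, fitted without the sets, called 3 (Kdr, Flt1 and Flt4 at 0.00651). The calls with ComBat and with array weights are to be read against 4386 and 1811 features called by the same fits.

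The 10 arrays differ in genotype and array set, so a correlation over them takes in both of these differences. Kdr and Flt1 correlated at r = 0.77, and Flt1 and Nrp1 at 0.84. Vegfb and Pgf ran opposite at -0.77, and Nrp2 and Vegfb together at 0.71. Vegfa was not close to any receptor, with r = 0.054 for Kdr, 0.34 for Flt1 and 0.18 for Flt4.

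The genes whose log2 values were most like Kdr over the 10 arrays, out of 16882 genes, were Ube2l6, an E2 conjugating enzyme (r = 0.97), Mx1, an antiviral GTPase (0.97), and Daxx, a histone chaperone (0.97). The least alike were Ldhb, a lactate dehydrogenase subunit (-0.99), Mmd (-0.98) and Herc1 (-0.96). Each repeated the position of Rac2-/- array 1, which follows from picking them for likeness to Kdr over these same arrays. Mx1 was 10.27, 8.64, 8.82, 8.57 and 8.21 on Rac2-/- arrays 1 to 5, and 10.40 to 11.21 on WT arrays. Ldhb was 7.41, 8.59, 8.62, 8.51 and 8.58 on Rac2-/- arrays 1 to 5, and 6.81 to 7.10 on WT arrays. In both genes, as in Kdr, Rac2-/- array 1 was the Rac2-/- array nearest to WT, and Rac2 itself on that array was within the spread of its group.

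For Flt1 the most alike were Slfn9, a Schlafen family member (r = 0.98), Rab7b, a small GTPase of late endosomes (0.97), and Usp18, a protease that removes ISG15 (0.97). The least alike were Mxd4 (-0.98), Mt1, a metallothionein (-0.97), and Tmbim1 (-0.97). Slfn9 was 9.20, 8.93, 9.19, 9.30 and 9.35 on Rac2-/- arrays 1 to 5, against 10.02, 10.22, 10.39, 10.36 and 10.51 on WT arrays 1 to 5, so that array 2 was lowest in Rac2-/- and array 1 lowest in WT, as in Flt1. For Vegfa the most alike were Gas6, a ligand of the TAM receptors (0.98), Irf8, a transcription factor of myeloid cells (0.97), and Dcaf5 (0.97), and the least alike were Slc25a13 (-0.98), Abcb1b (-0.97) and Cetn3 (-0.97). Irf8 was 10.67, 11.02, 11.21, 11.20 and 10.58 on Rac2-/- arrays 1 to 5, which repeats the low arrays 1 and 5 of Vegfa. Genes beside Flt1 and Vegfa were likewise picked by likeness over these arrays, so low arrays in common follow from the choice. None of these 6 genes alike or opposite to Vegfa passed the genotype test (adjusted p 0.848 to 0.999).

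**Figure D3:**
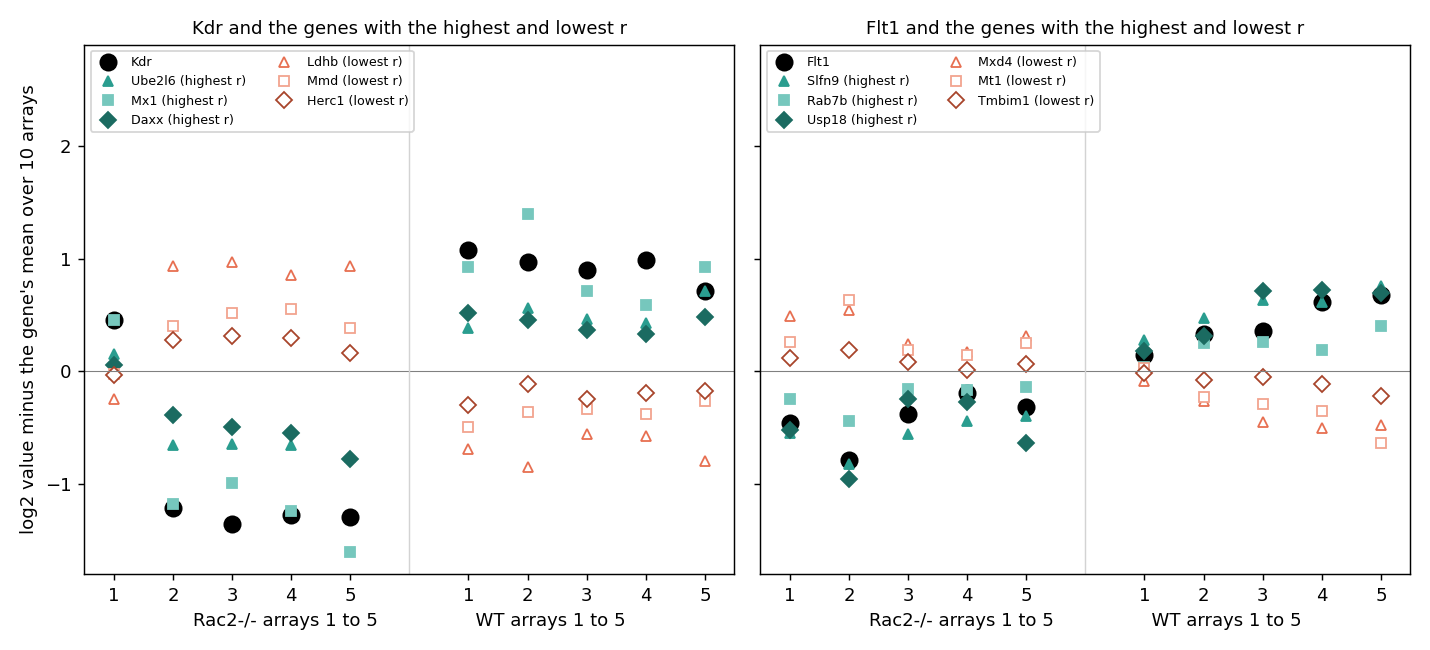
Log2 value minus the mean of the gene over 10 arrays (y axis) on Rac2-/- arrays 1 to 5 and WT arrays 1 to 5 (x axis) for Kdr (left) and Flt1 (right), with the 3 genes of highest r as filled coloured symbols and the 3 of lowest r as open symbols. On Rac2-/- array 1, Kdr, Mx1 and Ldhb sat on the WT side of the other Rac2-/- arrays, while Flt1 did not. Mx1 and Ldhb were picked by their r with Kdr over these arrays.

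The rest of the pathway was read from lists of its genes, compared by counts and medians with the -0.0003 median of all features. Class 3 semaphorins, most of which bind neuropilins, gave 0 calls of 6 tested and a median difference of 0.017. Examples were Sema3c at 0.12, Sema3a at 0.012 and Sema3b at 0.016. The class A and D plexins, which signal with neuropilins for semaphorins, gave 0 of 5 and a median of -0.091, with Plxna2 at -0.29, Plxna4 at -0.091 and Plxna1 at -0.10.

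Intracellular VEGF receptor signalling had 41 of 48 listed genes measured, and 0 of 41 passed in limma, with a median of 0.037. With the replicate block 2 of 41 passed, both higher in Rac2-/- (background 6.35%). They were Prkcb, a protein kinase C isoform (difference 0.67, adjusted p = 0.165, and 0.0109 with the block), and Pik3cg, the PI3-kinase of G protein-coupled receptors (0.41, 0.195 and 0.0271). Of 19 negative regulators 0 passed, and 3 did with the block: Notch1, a receptor that restrains sprouting (0.86), Cbl, a ubiquitin ligase for active receptors (0.41), and Socs1, a feedback inhibitor of cytokine signalling (-0.51).

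Among 16 extracellular partners that bind, release or trap VEGF, 1 passed. Sdc1, a heparan sulfate proteoglycan, was 9.23, 9.17, 9.09, 9.15 and 9.31 on Rac2-/- arrays 1 to 5, against 8.21, 8.27, 8.37, 8.40 and 8.51 on WT arrays 1 to 5. Every Rac2-/- array was above every WT array, with a difference of 0.84 (SE 0.081, limma adjusted p = 0.000742). With the block Thbs1 (0.52) and Thbs2 (-0.43), thrombospondins that inhibit angiogenesis, passed as well, in opposite directions. The list had a median of -0.0007.

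Genes that answer to oxygen sensing were read because Vegfa is one of them. Of 9 HIF factors and oxygen sensors 0 passed in limma, with a median of 0.14. With the block 3 passed, all higher in Rac2-/-: Hif1a, the oxygen-regulated subunit of HIF (0.71), and the prolyl hydroxylases Egln1 (0.44) and Egln3 (1.08). Of 27 hypoxia-inducible genes other than Vegfa 23 were tested, and 1 passed. Aldoc, the glycolytic enzyme aldolase C, was 10.09, 9.78, 9.48, 9.53 and 10.28 on Rac2-/- arrays 1 to 5, against 8.70, 8.58, 8.63, 8.72 and 8.98 on WT arrays 1 to 5. The groups did not overlap, and the difference was 1.11 (SE 0.16, limma adjusted p = 0.00719), or 2.16-fold. With the block 5 of 23 passed, all higher in Rac2-/-: Aldoc, the glucose transporter Slc2a1 (0.60), the glycolytic kinase Pgk1 (0.44), Bnip3, a mitophagy receptor (0.80), and Mxi1, a MYC antagonist (0.43). The list had 18 of 23 higher means in Rac2-/- and a median of 0.25, while Vegfa was at -0.17 in the same cultures. Whether Vegfa differs from the list was not tested.

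Other receptors of the same kind gave 0 calls. Of the class III and V tyrosine kinases 0 of 5 passed, with a median of -0.19, and Pdgfrb, the PDGF receptor of stromal cells, passed with the block (0.62). Of the angiopoietin and Tie genes 0 of 4 passed, with Angpt2 at -0.22, Tie1 at 0.090 and Angpt4 at 0.011.

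**Figure D4:**
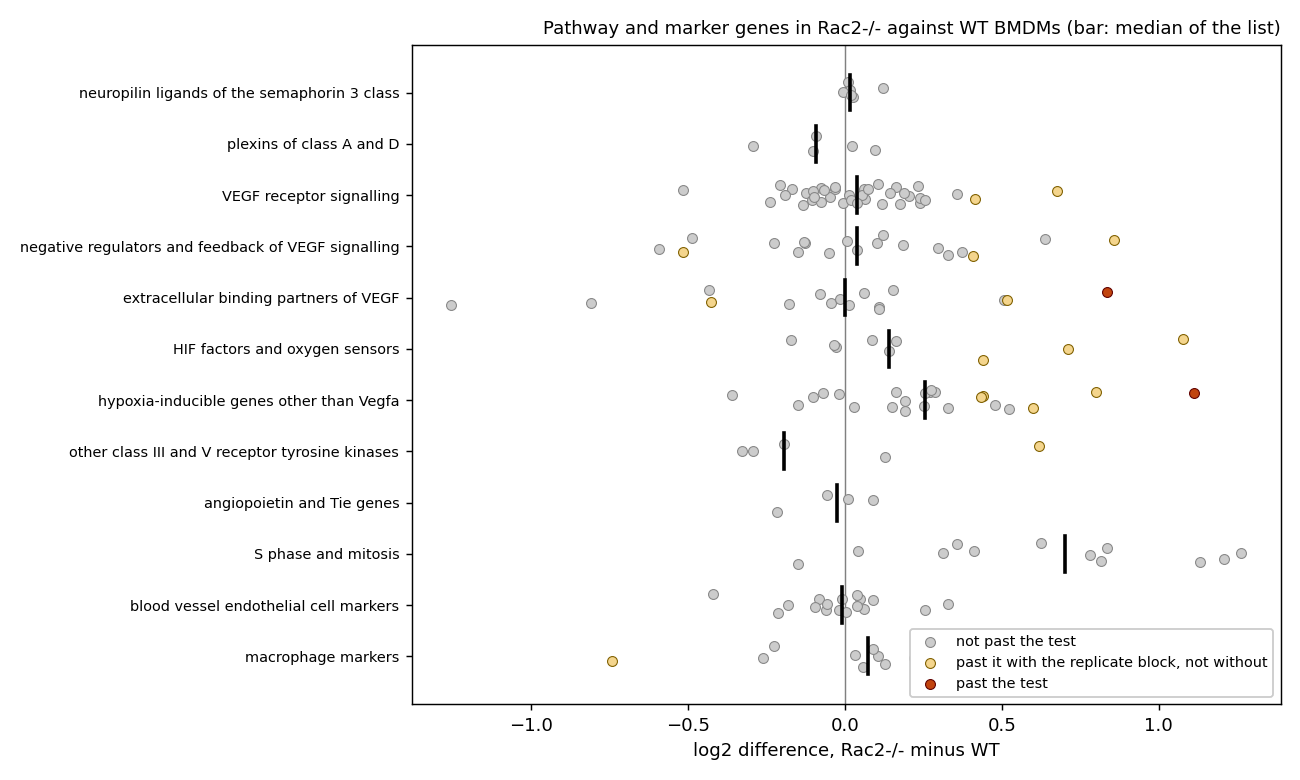
Log2 difference, Rac2-/- minus WT (x axis), of each tested gene (points) in 12 lists of pathway genes and markers (rows), with black bars for the median of a list. Red points passed limma over all features (Sdc1 and Aldoc), yellow points passed with the replicate block and not without it, and grey points passed neither; points are spread vertically to keep them apart.

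Since Kdr and Flt1 are best known from endothelium, endothelial markers were read beside them. Of 17 blood vessel markers tested 0 passed, the median difference was -0.0078, and the mean level of the list was 6.15 to 6.33 on Rac2-/- arrays and 6.21 to 6.33 on WT arrays. On Rac2-/- array 1, where Kdr was high, the list mean was 6.28. The defining markers did not separate the genotypes: Cdh5 (VE-cadherin) was 5.87 to 6.24 in Rac2-/- and 5.93 to 6.25 in WT, Tie1 was 5.64 to 5.77 in Rac2-/- and 5.45 to 5.72 in WT, and Tek 4.69 to 5.14 in Rac2-/- and 4.88 to 5.14 in WT. Pecam1, which myeloid cells also express, was 5.80 to 7.76 in Rac2-/- and 6.54 to 6.98 in WT. Emcn was left out by the filter on low values, at 4.00 to 4.16 in Rac2-/- and 3.90 to 4.42 in WT. The markers with the smallest adjusted p were Eng (-0.42), Sox7 (-0.21) and Plvap (-0.18). Sox7, a transcription factor of endothelium, was also highest on Rac2-/- array 1, at 6.36 against 5.51 to 5.61 on the other Rac2-/- arrays. None of the other blood vessel markers named here had its highest Rac2-/- value on that array. There Cdh5 was at 5.88, Tie1 at 5.64 and Tek at 5.03. Of 4 lymphatic markers 0 passed, with Pdpn at -0.79, Prox1 at 0.055 and Lyve1 at 0.011.

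The label of the cells was checked against other lists. Macrophage markers had list means of 12.03 to 12.28 in Rac2-/- and 12.12 to 12.32 in WT, and 0 of 10 passed, and with the block Itgam (0.33) and Fcgr1 (-0.74) did. Of 9 dendritic markers 2 passed in limma, Itgax, the integrin CD11c (1.95, adjusted p = 0.00424), and Ccr7, a chemokine receptor (-0.91, adjusted p = 0.0141, and 0.0506 without WT array 3), in opposite directions, and Xcr1 (0.61) and Siglech (-0.62) passed with the block. Pf4, a platelet chemokine that binds heparin, passed among 4 megakaryocyte markers (1.39, adjusted p = 0.00463). Ppbp (1.19), Gp9 (0.029) and Itga2b (-0.13) did not pass. No fibroblast marker passed (0 of 9, median -0.20), 3 did with the block, in both directions (Pdgfrb 0.62, Dcn -1.21 and Postn -0.69), and list means were 6.60 to 7.13 in Rac2-/- and 6.92 to 7.32 in WT. Mast cell and basophil markers gave 0 of 6 and a median of -0.55 (Prss34 -1.18, Cpa3 -0.98, Mcpt8 -0.84), with Tpsb2 alone higher in Rac2-/- (0.10). Neutrophil markers gave 0 of 10 and a median of -0.30 (Cxcr2 -0.49, Ltf -0.69, Ly6g -0.39), with Mmp8 (0.35) and Camp (0.031) higher in Rac2-/-. Neutrophil list means varied widely between arrays, 6.62 to 8.37 in Rac2-/- and 6.88 to 9.00 in WT. Osteoclast markers gave 0 of 9 and a median of 0.065, with 6 of 9 means higher in Rac2-/- and 1 gene past the test with the block, Ctsk (-0.90), and lymphocyte markers 0 of 3 (Nkg7 -0.28, Cd3e 0.046, Cd3g -0.052). Genes of S phase and mitosis gave 0 of 12 and a median of 0.70, at 0.25 within arrays 1 and 2 and 0.96 within arrays 3 to 5 (Mki67 1.21, Cdk1 0.62, Bub1 1.13). Without Rac2-/- array 5 the median was 0.17, with Mki67 at 0.59, Cdk1 at 0.29 and Bub1 at 0.50. Their part in the lower Kdr and Flt1 was not tested.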

How the data were processed

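BMDMs of Rac2-/- and WT mice were hybridized to Affymetrix Mouse Gene 1.0 ST arrays, 5 per group, with groups and replicate numbers taken from the labels. RMA (background correction, quantile normalization, 1 summary per feature) was applied by the authors, and the deposited log2 values were used as they stand. Their base was inferred from their range (1.69 to 13.7, array medians 6.07 to 6.14). Software versions of the authors are not given in the sources used here. Their methods name ComBat for a batch effect, but the array sets still stood apart in the deposited values. The labels and the methods differ in day of harvest, RIN and share of Mac1-positive cells, and the labels are followed here (RIN 8 to 9, 100 ng of RNA). For arrays, their number limits the precision.

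Of 34760 features, the filter kept those whose fourth-highest value was largest (lowest 4.73), as many as the methods state, which give no level. Names came from the platform annotation, updated through RefSeq (21640 features with a single symbol, 1321 with several, 11799 not listed). Of the single symbols 21553 were matched by Entrez identifier and 3 by accession, and 84 were kept as given. For genes with more than 1 feature, the brightest by mean was taken. Genotypes were compared with limma 3.58.1 under R 4.3.3 (lmFit, eBayes, no block). P-values were adjusted by Benjamini-Hochberg over every feature kept, with a threshold of 0.05, and exact two-sided permutation tests over the 10 arrays were run for single genes. The code was tested on simulated data. Other settings were the filter, the replicate block, a term for the array set, ComBat on it, each set alone, trended and robust variance, array weights, centring on array medians, a second quantile normalization, averaging a gene's features, and leaving out each array.

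Deviations from the group means correlated at 0.493 to 0.716 between same-numbered arrays. Other numbers of the same set correlated at 0.476 to 0.724, and for 5 of 10 arrays the best match was the own number. These values thus show no pairing by number beyond the array set. The pairs and the replicate block rest on the numbers in the labels alone. The 9 genes, the pathway and marker lists, the array sets and the tests were chosen with earlier results of these data known. Named were the 9 genes, Rac2, list genes past the threshold (or past it with the block where fewer than 3 passed, or else up to 3 with the smallest adjusted p), defining endothelial markers, and for Kdr, Flt1 and Vegfa the 3 genes with the highest and the 3 with the lowest correlation.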

Additional observations from a re-analysis of the deposited data

Results flagged for a closer look

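Of the 9 genes, Kdr alone had an array far from the rest of its group: Rac2-/- array 1 read 7.65, against 5.84 to 5.98 on the other 4 Rac2-/- arrays. Over the 87 named genes, 174 groups of 5 arrays were looked at, of which chance alone marks about 5%, and 10 were marked. Of the genes most or least like Kdr, which were picked for their likeness to it over these arrays, Ube2l6 (11.12, others 10.21 to 10.33), Ldhb (7.41, others 8.51 to 8.62) and Mmd (9.01, others 9.42 to 9.58) were marked on the same Rac2-/- array 1. The other marked values were Mt1 on Rac2-/- array 2 (12.02, others 11.53 to 11.65), Sox7 on Rac2-/- array 1 (6.36, others 5.51 to 5.61), Itgax on Rac2-/- array 5 (8.96, others 7.49 to 7.90), Mki67 on Rac2-/- array 5 (10.51, others 6.85 to 7.82), Angpt4 on WT array 2 (6.28, others 5.88 to 5.94) and Emcn on WT array 1 (4.42, others 3.90 to 4.00).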

How the results depend on the processing

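Kdr and Flt1 were lower in Rac2-/- under every setting tried. Both missed the threshold within arrays 1 and 2 (Kdr -1.40, Flt1 -0.86), where 0 of the 9 genes and 2 features in all passed and each genotype has 2 arrays, and Kdr missed it with 4 of the 10 arrays left out in turn (differences -2.21 to -1.76 over all 10). Leaving out arrays gave 1 to 2 of the 9 genes. With the replicate block the same 2 of 9 genes passed. The block changed no call among the 9 genes. Features called, 514 in all, were 1716 with the replicate block, 2524 with a term for array set, 4386 with ComBat, 1487 within arrays 3 to 5, 1811 with array weights and 245 to 625 with an array left out. Flt4 passed with ComBat (-0.38), within arrays 3 to 5 (-0.57) and with array weights (-0.52), and Nrp1 with ComBat (-0.36), which made 4 of 9 genes with ComBat. The cause of these moves was not tested.

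Most changes of sign concerned differences near 0, Flt4 (-0.34 over all arrays) being the exception among the 9 genes. Vegfb was -0.0018 with ComBat, -0.070 within arrays 3 to 5, -0.11 with array weights, -0.017 after quantile normalization and -0.13 to 0.12 with an array left out. Within arrays 1 and 2, Flt4 was 0.0004, Nrp2 -0.14 and Vegfc -0.064, and with an array left out Nrp2 was -0.044 to 0.12 and Vegfc -0.016 to 0.047. Other genes whose sign changed within arrays 1 and 2 were Sema3a (-0.010), Plxna4 (0.0010), Angpt4 (-0.036), Prox1 (-0.018), Lyve1 (-0.036) and Cd3g (0.023), and within arrays 3 to 5 Sema3b (-0.0023), Plxna1 (0.017), Tek (0.057) and Cd3e (-0.048). With array weights Tek was 0.046 and Cd3e -0.053. With an array left out the ranges were -0.050 to 0.080 for Sema3a, -0.015 to 0.046 for Sema3b, -0.24 to 0.029 for Plxna1, -0.047 to 0.083 for Angpt4, -0.0086 to 0.11 for Prox1, -0.020 to 0.064 for Lyve1, -0.15 to 0.0036 for Cd3g, -0.11 to 0.0063 for Tek, -0.14 to 0.019 for Irf8 and -0.13 to 0.010 for Vegfd. For the 77 tested genes named outside the 9, 1463 values kept sign and side of the threshold, 116 came past it, 45 fell short and 34 changed sign. Of the genes most or least like Kdr or Flt1, Mx1 and Herc1 each passed on 1 and Rab7b on 2 of the 10 occasions when 1 array was left out.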
